A study of Mus musculus with 9 samples.

Results

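Glucose uptake, glycolysis, lactate handling and glycogen turnover were described in the left ventricle through 31 genes, taken by symbol from the 22036 annotated genes of the count table. The list was drawn up by function, with earlier results of these data known, so its counts do not describe genes chosen without sight of them. It held 11 isoforms that striated muscle favours, 10 isoforms that are ubiquitous or typical of another tissue, and 10 other members. The other members were enzymes not paired by isoform here, the lactate transporters and Pfkfb1. All 31 symbols were in the table and all 31 passed the filter on low counts. Aldoc passed it only through the HFD AAV-CON libraries, where it was highest. The symbol Aldoa stood on 2 entries, of which the second held 0 to 9 reads in a library and was not tested.

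Libraries came from wild-type mice, 9 in all, with 3 biological replicates in each of 3 groups. HFD AAV-BCKDK mice were kept on HFD, taken as a high-fat diet, and their vector was named for BCKDK, the kinase that inhibits branched-chain α-ketoacid dehydrogenase. HFD AAV-CON mice had the control vector on the same diet. ND AAV-CON mice had the control vector on ND, taken as a normal diet. HFD AAV-CON against ND AAV-CON asks about the diet under a control vector, and HFD AAV-BCKDK against HFD AAV-CON about the BCKDK vector on HFD. AAV stands for adeno-associated virus, so all 9 mice carried a viral vector. The sources used here do not give the age or sex of the mice, what the diets held or how long they lasted, or the dose and promoter of the vectors.

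Glucose enters heart muscle cells through the carriers GLUT4 (Slc2a4), which moves to the cell surface on insulin and contraction, and GLUT1 (Slc2a1), which carries basal uptake. Hexokinase traps it as glucose 6-phosphate, which is burned through glycolysis or stored as glycogen. The adult heart draws most of its energy from fatty acids and lactate, and its lactate dehydrogenase is rich in the heart subunit Ldhb. Most steps have isoforms that differ by tissue, with forms of striated muscle (Pfkm, Pgam2, Eno3, Pygm) beside forms that other cells share (Pfkl, Pfkp, Pgam1, Eno1, Pygb).

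The promoter sequences of 2 isoform pairs whose members moved in opposite directions with diet are shown first. They are 300 bases each, 250 before and 50 after a transcription start, from RefSeq on GRCm38.p6 and read 5′ to 3′ on the strand of the gene. Pgam1 and Pgam2 encode the ubiquitous and the muscle phosphoglycerate mutase, and Slc16a3 and Slc16a1 encode the lactate transporters MCT4 and MCT1. The windows lie at chr19:41911621-41911920 on the plus strand for Pgam1 and chr11:5803747-5804046 on the minus strand for Pgam2. Those of Slc16a3 and Slc16a1 lie at chr11:120948817-120949116 and chr3:104638414-104638713, both on the plus strand. Capitals mark ACGTG on either strand, the core of hypoxia response and carbohydrate response elements, GGGCGG on either strand, a GC box, and the MEF2 motif of muscle genes.
Pgam1: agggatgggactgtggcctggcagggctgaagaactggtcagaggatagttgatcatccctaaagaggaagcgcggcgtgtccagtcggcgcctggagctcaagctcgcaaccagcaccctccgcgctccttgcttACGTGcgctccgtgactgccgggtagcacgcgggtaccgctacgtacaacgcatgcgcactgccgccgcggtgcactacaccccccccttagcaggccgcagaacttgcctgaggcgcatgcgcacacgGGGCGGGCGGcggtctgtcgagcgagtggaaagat
Pgam2: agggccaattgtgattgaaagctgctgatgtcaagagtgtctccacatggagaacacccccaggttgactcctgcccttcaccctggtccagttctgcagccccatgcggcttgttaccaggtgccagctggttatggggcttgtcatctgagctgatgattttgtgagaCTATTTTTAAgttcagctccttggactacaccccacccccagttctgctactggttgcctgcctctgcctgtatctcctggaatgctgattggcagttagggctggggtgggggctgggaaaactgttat
Slc16a3: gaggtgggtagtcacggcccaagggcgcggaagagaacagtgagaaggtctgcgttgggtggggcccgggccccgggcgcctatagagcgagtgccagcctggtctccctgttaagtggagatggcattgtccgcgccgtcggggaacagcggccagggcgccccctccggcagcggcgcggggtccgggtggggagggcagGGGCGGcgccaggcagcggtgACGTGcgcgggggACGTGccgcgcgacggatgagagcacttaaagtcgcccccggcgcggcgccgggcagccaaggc
Slc16a1: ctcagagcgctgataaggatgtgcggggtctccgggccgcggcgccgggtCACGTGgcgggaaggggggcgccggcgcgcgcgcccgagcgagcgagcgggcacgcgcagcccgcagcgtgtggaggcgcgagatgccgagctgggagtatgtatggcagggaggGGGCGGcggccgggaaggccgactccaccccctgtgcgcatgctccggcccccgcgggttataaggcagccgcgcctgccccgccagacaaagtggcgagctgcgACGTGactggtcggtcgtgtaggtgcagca

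The Pgam1 window held 1 ACGTG and 2 overlapping GGGCGG matches, whereas the Pgam2 window held neither and had 1 MEF2 match. Slc16a3 had 2 ACGTG and 1 GGGCGG match. Slc16a1 had 1 GGGCGG and 3 ACGTG matches, of which 2 overlap in a CACGTG. RefSeq windows matched 30 of the 31 members, with 48 windows in all. ACGTG was in at least 1 window of 18 of these 30 members (60%), against 21.8% of 27025 genes. By isoform type it was in 5 of 10 muscle-type, 7 of 10 ubiquitous and 6 of 10 other members. GGGCGG was in 22 of 30 members (73.3%), against 38.2% of all genes, and TATAAA in 2 members (6.67%), against 15.7%. A MEF2 match was present in 2 members, Pfkfb1 and Pgam2, against 3.70% of all genes. The 2 sides of these shares are not alike. Members had 48 windows for 30 genes and all genes 32851 for 27025, so a member had more windows in which to hold a match. The base also includes genes that were not expressed here, and base composition was not matched. The shares therefore do not show an excess of these motifs in the members. These are matches of letters and not measured binding, and no link between them and the fold changes was tested.

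Annotated genes received between 32803233 and 45483044 counts per library. Mitochondrially encoded mRNAs took 45.0% to 47.6% of them in HFD AAV-BCKDK, 26.1%, 39.9% and 33.2% in HFD AAV-CON replicates 1 to 3, and 42.1% to 45.7% in ND AAV-CON. Loci without a gene name held 1.02% of all counts in HFD AAV-CON replicate 3 and 4.75% to 6.01% in every other library. That replicate lay between the other 2 of its group for 64.2% of genes tested, against 14.9% to 37.7% for the other 8 libraries, and for 28 of the 31 members. Replicate 1 of HFD AAV-CON lay farthest from ND AAV-CON for 26 members and replicate 2 nearest for 25. Results were therefore also taken without HFD AAV-CON replicate 3. Bckdk had 111 to 126 CPM in HFD AAV-BCKDK and 37.1 to 65.0 CPM in HFD AAV-CON, against 70.3 to 78.6 CPM in ND AAV-CON, so the libraries labelled with the vector were the highest. CPM is a count relative to the library size, which was scaled with TMM factors, and it is the level used below unless a length is named. In bulk tissue, fewer cells of a type and less RNA per cell cannot be told apart.

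Muscle-type isoforms were lower and ubiquitous isoforms higher in HFD AAV-CON than in ND AAV-CON, which is called the diet comparison below. Of 11 muscle-type isoforms, 6 fell (Slc2a4, Pfkm, Pgam2, Eno3, Ldhb and Pygm), 0 rose and 5 were not called. Of 10 ubiquitous isoforms, 7 rose (Slc2a1, Hk1, Pfkp, Pfkfb3, Aldoc, Pgam1 and Eno1), 1 fell (Pygb) and 2 were not called. Aldoc entered the test only through HFD AAV-CON, the group where it was high, so its rise adds no support to this count. The other members gave 1 rise (Slc16a3), 3 falls (Pfkfb1, Gbe1 and Slc16a1) and 6 without a call. Over all 31 members 8 rose and 10 fell, that is 58.1% called, where 43.3% of all genes tested were called (22.7% higher and 20.6% lower). A call means a Benjamini-Hochberg adjusted p under 0.05 in edgeR's quasi-likelihood test over 14160 genes, and every fold change is given on the log2 scale with its standard error (SE). The median log2 fold change was -0.70 in muscle-type isoforms and 0.62 in ubiquitous ones, against -0.00 over all genes tested. The groups did not overlap in 9 members that were higher and 13 that were lower in HFD AAV-CON, where 28.2% and 27.1% of all genes did so. In the same libraries 7 of 8 cardiomyocyte markers fell and all 8 macrophage markers rose, with the values given beside the other markers.

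In HFD AAV-BCKDK against HFD AAV-CON, called the vector comparison below, muscle-type isoforms were higher and ubiquitous isoforms lower. Muscle-type isoforms gave 8 rises (Slc2a4, Pfkm, Pgam2, Eno3, Ldhb, Gys1, Pygm and Phka1), 0 falls and 3 without a call, with a median log2 fold change of 0.60. Ubiquitous isoforms gave 7 falls (Slc2a1, Hk1, Pfkp, Pfkfb3, Aldoc, Pgam1 and Eno1), 1 rise (Pygb) and 2 without a call, with a median of -0.53. The fall of Aldoc adds no support here either, for the same reason. The other members gave 2 rises (Gbe1 and Slc16a1), 1 fall (Slc16a3) and 7 without a call. Over all 31 members 11 rose and 8 fell (61.3%), where 38.2% of all genes were called (17.3% higher and 20.9% lower) and the median of all genes was -0.01. Both comparisons contain the same HFD AAV-CON libraries, which sit in the denominator of one and the numerator of the other. Opposite signs are therefore not independent observations. In 14 members that were higher and 8 that were lower in HFD AAV-BCKDK the groups did not overlap, where 24% and 27.3% of all genes did so.

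**Figure D1:**
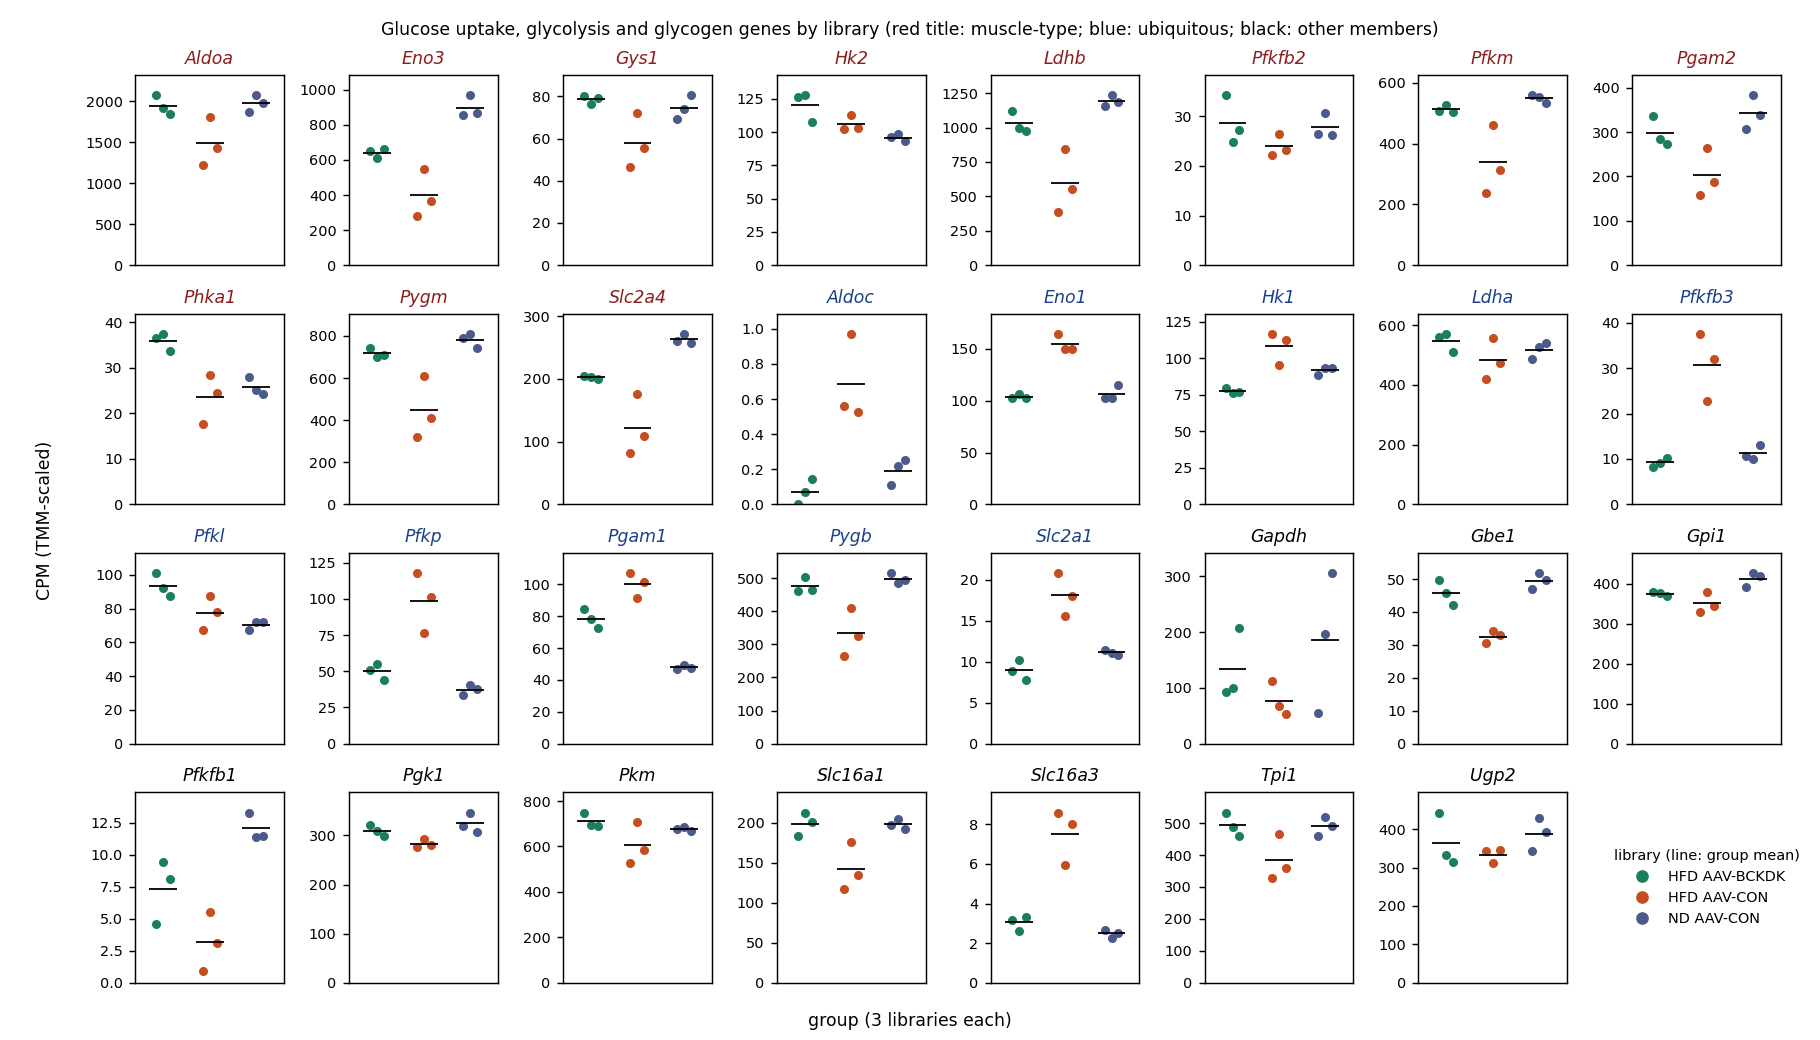
CPM of each of the 31 members (vertical axes, linear, from 0, 1 scale per gene) in the 9 libraries, with HFD AAV-BCKDK left, HFD AAV-CON in the middle and ND AAV-CON right, and a line at each group mean. The HFD AAV-CON libraries lie lowest in Slc2a4, Pfkm, Pgam2, Eno3, Ldhb and Pygm and highest in Slc2a1, Pfkp, Pfkfb3, Pgam1, Eno1 and Slc16a3.

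At glucose uptake, the insulin-responsive carrier fell and the basal carrier rose with diet. Slc2a4 (chr11:69942539-69948188, minus strand, GRCm38) had 206, 203 and 200.5 CPM in HFD AAV-BCKDK and 81.7, 177 and 109.5 CPM in HFD AAV-CON, against 260.3, 271 and 257 CPM in ND AAV-CON. Slc2a1 (chr4:119108711-119137983, plus strand) had 8.87, 10.2 and 7.79 CPM in HFD AAV-BCKDK and 20.8, 15.6 and 18.0 CPM in HFD AAV-CON, against 11.5, 11.1 and 10.9 CPM in ND AAV-CON. No library of one group overlapped another group for either gene, and HFD AAV-CON replicate 2 was the closest of its group to the others. Slc2a4 fell by 1.10 on the log2 scale with diet (SE 0.23, adjusted p = 0.00489) and was higher by 0.73 with the vector (SE 0.22, adjusted p = 0.0303). Slc2a1 rose by 0.70 with diet (SE 0.13, adjusted p = 0.00326) and fell by 1.02 with the vector (SE 0.13, adjusted p = 0.00139). Without HFD AAV-CON replicate 3 the diet fold changes were -1.03 for Slc2a4 (adjusted p = 0.0242) and 0.71 for Slc2a1 (adjusted p = 0.0147). Without that library the vector fold change of Slc2a1 was -1.004 (adjusted p = 0.00860), and that of Slc2a4 was 0.68 and no longer called (adjusted p = 0.0938). Per kilobase of exon, Slc2a4 made up 95.8% ± 0.522 of the Slc2a4 and Slc2a1 total in HFD AAV-BCKDK and 85.9% ± 6.04 in HFD AAV-CON, against 96.0% ± 0.144 in ND AAV-CON (SD, n = 3 each).

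Of the hexokinases, which phosphorylate the glucose taken up, Hk1 was called in both comparisons and Hk2 in neither. Hk2, the insulin-responsive muscle form, had 126, 128 and 108 CPM in HFD AAV-BCKDK and 102, 113 and 103 CPM in HFD AAV-CON, against 96.0, 98.4 and 93.2 CPM in ND AAV-CON. Its log2 fold changes were 0.14 with diet (adjusted p = 0.207) and 0.19 with the vector (adjusted p = 0.117). Hk1, the broadly expressed form, had 79.7, 76.4 and 77.0 CPM in HFD AAV-BCKDK and 117, 95.5 and 112 CPM in HFD AAV-CON, against 88.6, 93.4 and 93.4 CPM in ND AAV-CON. All 3 HFD AAV-CON libraries were above all 6 others. Hk1 rose by 0.24 with diet (SE 0.09, adjusted p = 0.0491) and fell by 0.48 with the vector (SE 0.09, adjusted p = 0.00401). The diet call was lost when any 1 of 8 libraries was left out, all but HFD AAV-CON replicate 2, with adjusted p between 0.0674 and 0.156. The vector call held without each library.

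In upper glycolysis the phosphofructokinase genes, which catalyse the committed step, differed among themselves. Pfkm, the muscle subunit (chr15:98092589-98132451, plus strand), had 508, 526 and 504 CPM in HFD AAV-BCKDK and 237, 463 and 315 CPM in HFD AAV-CON, against 561, 553 and 536 CPM in ND AAV-CON. Pfkp, the platelet subunit (chr13:6579768-6648777, minus strand), had 50.8, 55.3 and 44.2 CPM in HFD AAV-BCKDK and 118, 76.1 and 102 CPM in HFD AAV-CON, against 33.8, 40.6 and 37.6 CPM in ND AAV-CON. Pfkl, the liver subunit, had 101, 92.2 and 87.6 CPM in HFD AAV-BCKDK and 67.3, 87.5 and 78.2 CPM in HFD AAV-CON, against 67.0, 72.4 and 71.8 CPM in ND AAV-CON. The groups were apart for Pfkm and Pfkp, while Pfkl overlapped between HFD AAV-CON and ND AAV-CON. With diet, Pfkp rose by 1.40 (SE 0.16, adjusted p = 5.67e-04), Pfkm fell by 0.70 (SE 0.20, adjusted p = 0.0197), and Pfkl stood at 0.14 (SE 0.10, adjusted p = 0.293). With the vector, Pfkp fell by 0.98 (SE 0.16, adjusted p = 0.00243) and Pfkm rose by 0.60 (SE 0.20, adjusted p = 0.0400), with Pfkl at 0.27 (SE 0.10, adjusted p = 0.0649). With HFD AAV-CON replicate 3 left out, Pfkp kept both calls, at 1.38 with diet (adjusted p = 0.00373) and -0.93 with the vector (adjusted p = 0.0138), and Pfkm lost both (adjusted p = 0.0705 and 0.109). The diet call of Pfkm was also lost without ND AAV-CON replicate 1 or 2, with adjusted p of 0.0546 and 0.0542.

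Aldolase, which splits fructose 1,6-bisphosphate, was almost wholly Aldoa in these libraries. Aldoa had 2074, 1922 and 1842 CPM in HFD AAV-BCKDK and 1219, 1803 and 1435 CPM in HFD AAV-CON, against 1870.5, 2076 and 1981 CPM in ND AAV-CON. HFD AAV-CON was lowest without overlap, but Aldoa was called neither with diet (-0.41, adjusted p = 0.0525) nor with the vector (0.39, adjusted p = 0.0687). Aldoc, the brain form, rested on few reads, with 0, 2 and 6 reads in HFD AAV-BCKDK and 35, 36 and 22 in HFD AAV-CON, against 4, 8 and 10 in ND AAV-CON. These were 0, 0.0707 and 0.142 CPM in HFD AAV-BCKDK and 0.561, 0.969 and 0.525 CPM in HFD AAV-CON, against 0.109, 0.216 and 0.253 CPM in ND AAV-CON. Aldoc was called higher with diet, by 1.80 (SE 0.64, adjusted p = 0.0459), and lower with the vector, by a fitted -3.09 (SE 0.73, adjusted p = 0.0119) whose size depends on the prior count because 1 library had no read. The diet call was lost without any 1 of 7 libraries, all but HFD AAV-BCKDK replicates 1 and 3, with adjusted p between 0.0710 and 0.142. It was also lost with no filter on low counts and with the replicate block. Aldoc passed the filter only through the HFD AAV-CON libraries, the group where it was high. Neither call is therefore support for a shift of ubiquitous isoforms. Gpi1, the isomerase between the hexokinase and phosphofructokinase steps, averaged 376 ± 5.50 CPM in HFD AAV-BCKDK and 351 ± 25.1 CPM in HFD AAV-CON, against 413 ± 18.5 CPM in ND AAV-CON (SD, n = 3 each), with no call.

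The Pfkfb enzymes make and break down fructose 2,6-bisphosphate, the activator of phosphofructokinase, and of them the inducible form was called in both comparisons. Pfkfb3, the inducible form with high kinase activity (chr2:11471433-11554077, minus strand), had 8.33, 9.19 and 10.2 CPM in HFD AAV-BCKDK and 37.5, 22.7 and 32.0 CPM in HFD AAV-CON, against 10.7, 9.91 and 13.1 CPM in ND AAV-CON. Pfkfb2, the cardiac form, had 34.3, 24.7 and 27.1 CPM in HFD AAV-BCKDK and 22.3, 26.3 and 23.1 CPM in HFD AAV-CON, against 26.4, 30.6 and 26.2 CPM in ND AAV-CON. Every HFD AAV-CON library exceeded every other library in Pfkfb3, whereas the groups overlapped in Pfkfb2. Pfkfb3 rose by 1.45 with diet (SE 0.18, adjusted p = 7.57e-04) and fell by 1.74 with the vector (SE 0.19, adjusted p = 0.00121). Pfkfb2 was not called with diet (-0.21, adjusted p = 0.209) or the vector (0.26, adjusted p = 0.137). Pfkfb1, the form of liver and skeletal muscle, had 4.57, 9.44 and 8.10 CPM in HFD AAV-BCKDK and 0.930, 5.57 and 3.12 CPM in HFD AAV-CON, against 13.3, 11.4 and 11.5 CPM in ND AAV-CON. Pfkfb1 fell by 1.94 with diet (SE 0.51, adjusted p = 0.0138). Its difference of 1.23 with the vector, where the groups overlapped, was not called (SE 0.51, adjusted p = 0.0811). Without HFD AAV-CON replicate 3, the diet values were 1.43 for Pfkfb3 (adjusted p = 0.00448) and -1.93 for Pfkfb1 (adjusted p = 0.0488), and Pfkfb3 stood at -1.69 with the vector (adjusted p = 0.00792).

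Lower glycolysis held the member with the smallest adjusted p with diet. Pgam1, the ubiquitous mutase that moves the phosphate group between carbons of phosphoglycerate (chr19:41911923-41918660, plus strand), had 84.3, 78.0 and 72.7 CPM in HFD AAV-BCKDK and 107, 91.5 and 102 CPM in HFD AAV-CON, against 46.6, 49.6 and 47.8 CPM in ND AAV-CON. The 3 groups were fully apart, with HFD AAV-BCKDK in the middle. Pgam2, its muscle counterpart (chr11:5801640-5803733, minus strand), had 336, 284 and 273 CPM in HFD AAV-BCKDK and 159, 263 and 188 CPM in HFD AAV-CON, against 307, 384 and 338 CPM in ND AAV-CON, and HFD AAV-BCKDK and ND AAV-CON overlapped. Pgam1 rose by 1.06 with diet (SE 0.09, adjusted p = 2.48e-04) and fell by 0.35 with the vector (SE 0.09, adjusted p = 0.0129). Pgam2 fell by 0.75 with diet (SE 0.18, adjusted p = 0.00944) and rose by 0.55 with the vector (SE 0.18, adjusted p = 0.0380). Their promoters are those printed above, where the MEF2 match is in Pgam2 and the ACGTG match in Pgam1. With HFD AAV-CON replicate 3 left out the diet calls of Pgam1 (1.05, adjusted p = 0.00255) and Pgam2 (-0.70, adjusted p = 0.0409) remained. The vector calls of both were lost without that library (adjusted p = 0.0599 for Pgam1 and 0.107 for Pgam2). The vector fall of Pgam1 was also lost without HFD AAV-CON replicate 1, at -0.28 with an adjusted p of 0.05004.

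Enolase, the next step, moved in the same way as the mutase pair with diet. Eno3, the muscle enolase (chr11:70657202-70662513, plus strand), had 652, 613 and 660.0 CPM in HFD AAV-BCKDK and 279, 549 and 369 CPM in HFD AAV-CON, against 858, 970.1 and 865 CPM in ND AAV-CON. Eno1, the ubiquitous enolase (chr4:150236721-150248879, plus strand), had 103, 106 and 103 CPM in HFD AAV-BCKDK and 164, 149.8 and 149.9 CPM in HFD AAV-CON, against 102, 102 and 116 CPM in ND AAV-CON. HFD AAV-BCKDK lay between the other groups in Eno3 and within the range of ND AAV-CON in Eno1. Eno3 fell by 1.17 with diet (SE 0.21, adjusted p = 0.00266) and rose by 0.69 with the vector (SE 0.21, adjusted p = 0.0285). Eno1 rose by 0.53 with diet (SE 0.08, adjusted p = 0.00133) and fell by 0.57 with the vector (SE 0.08, adjusted p = 0.00165). Without HFD AAV-CON replicate 3, Eno1 kept both calls (0.56 and -0.58), and Eno3 kept the diet call (-1.12, adjusted p = 0.0150) and lost the vector call (0.65, adjusted p = 0.0872). Tpi1, Pgk1 and Pkm, which carry triose isomerisation and the ATP-yielding steps to pyruvate, were not called in any comparison. Counts are per gene, so splice forms of a gene were not told apart. With diet the log2 fold changes of Tpi1, Pgk1 and Pkm were -0.35, -0.19 and -0.16. Gapdh, often used as a loading control, had 92.1, 100.4 and 207 CPM in HFD AAV-BCKDK and 112, 66.9 and 52.5 CPM in HFD AAV-CON, against 54.2, 197 and 305 CPM in ND AAV-CON, with no call. Its replicates spread several-fold within groups and the annotation holds 78 near-identical copies of it, so its values are uncertain.

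At the lactate step Ldhb fell with diet while Ldha did not pass the test. Ldhb, the heart subunit, which is grouped here with the muscle-type isoforms (chr6:142490249-142507957, minus strand), had 1123, 1000.2 and 976 CPM in HFD AAV-BCKDK and 387, 844 and 557 CPM in HFD AAV-CON, against 1159, 1237 and 1189.6 CPM in ND AAV-CON. Ldha, the subunit of skeletal muscle and most other tissues, grouped here as ubiquitous, had 561, 569.8 and 510.1 CPM in HFD AAV-BCKDK and 420.1, 557 and 473 CPM in HFD AAV-CON, against 487, 528 and 539 CPM in ND AAV-CON. The 3 groups were apart in Ldhb and overlapped in Ldha. Ldhb fell by 1.005 with diet (SE 0.23, adjusted p = 0.00855) and rose by 0.79 with the vector (SE 0.23, adjusted p = 0.0261), and Ldha stood at -0.10 (adjusted p = 0.524) and 0.18 (adjusted p = 0.259). With HFD AAV-CON replicate 3 left out, Ldhb was at -0.96 with diet (adjusted p = 0.0366) and at 0.77 with the vector, no longer called (adjusted p = 0.0802).

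Lactate transporters moved apart. Slc16a3, which encodes MCT4, the exporter of glycolytic cells (chr11:120948480-120960868, plus strand), had 3.17, 2.62 and 3.35 CPM in HFD AAV-BCKDK and 8.60, 5.95 and 8.03 CPM in HFD AAV-CON, against 2.68, 2.27 and 2.53 CPM in ND AAV-CON. Slc16a1, which encodes MCT1, the main lactate carrier of the heart (chr3:104638668-104658462, plus strand), had 183, 213 and 200.4 CPM in HFD AAV-BCKDK and 117, 176 and 134 CPM in HFD AAV-CON, against 198, 205 and 192 CPM in ND AAV-CON. In both genes HFD AAV-CON was apart from the other groups, which overlapped each other. Slc16a3 rose by 1.60 with diet (SE 0.18, adjusted p = 6.11e-04) and fell by 1.30 with the vector (SE 0.18, adjusted p = 0.00165). Slc16a1 fell by 0.48 with diet (SE 0.14, adjusted p = 0.0220) and rose by 0.48 with the vector (SE 0.14, adjusted p = 0.0251). Without HFD AAV-CON replicate 3, Slc16a3 stood at 1.55 (adjusted p = 0.00423) and -1.24 (adjusted p = 0.0106), and Slc16a1 lost both calls (adjusted p = 0.0790 with diet and 0.0783 with the vector). Slc16a1 also lost its diet call without 1 of 3 other libraries, at 0.0528 for HFD AAV-CON replicate 1, 0.0551 for ND AAV-CON replicate 1 and 0.0669 for ND AAV-CON replicate 2 (adjusted p by edgeR).

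Of the 6 glycogen members, 3 fell with diet, where 20.6% of all genes fell, and 5 rose with the vector, where 17.3% of all genes rose, and here the muscle and brain forms of phosphorylase moved together. Pygm, the muscle phosphorylase that releases glucose 1-phosphate, had 745, 699 and 708 CPM in HFD AAV-BCKDK and 321, 610.4 and 411 CPM in HFD AAV-CON, against 789, 808 and 741 CPM in ND AAV-CON. Pygb, the brain form, had 461, 504 and 466 CPM in HFD AAV-BCKDK and 265, 410.1 and 325 CPM in HFD AAV-CON, against 515, 485 and 495 CPM in ND AAV-CON. HFD AAV-CON was lowest without overlap in both. Pygm fell by 0.80 with diet (SE 0.20, adjusted p = 0.0110) and rose by 0.68 with the vector (SE 0.20, adjusted p = 0.0251), and Pygb fell by 0.58 (SE 0.15, adjusted p = 0.0114) and rose by 0.52 (SE 0.15, adjusted p = 0.0222). Gbe1, the branching enzyme, averaged 45.9 ± 3.85 CPM in HFD AAV-BCKDK and 32.5 ± 1.86 CPM in HFD AAV-CON, against 49.5 ± 2.37 CPM in ND AAV-CON (SD, n = 3 each). It fell by 0.61 with diet (SE 0.08, adjusted p = 0.00103) and rose by 0.50 with the vector (SE 0.08, adjusted p = 0.00310).

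Among the remaining glycogen members, Gys1 and Phka1 passed the test in the vector comparison and not with diet. Whether their changes differed in size between the comparisons was not tested. Gys1, the muscle glycogen synthase, averaged 78.6 ± 1.88 CPM in HFD AAV-BCKDK and 58.0 ± 12.9 CPM in HFD AAV-CON, against 74.7 ± 5.66 CPM in ND AAV-CON (SD, n = 3 each). It rose by 0.44 with the vector (SE 0.14, adjusted p = 0.0340) and stood at -0.36 with diet (adjusted p = 0.0593). Phka1, the muscle regulatory subunit of phosphorylase kinase, averaged 35.8 ± 1.95 CPM in HFD AAV-BCKDK and 23.5 ± 5.41 CPM in HFD AAV-CON, against 25.7 ± 1.91 CPM in ND AAV-CON (SD, n = 3 each). It rose by 0.61 with the vector (SE 0.15, adjusted p = 0.0148) and stood at -0.13 with diet (adjusted p = 0.502). Ugp2, which makes the UDP-glucose that glycogen synthase uses, was called in no comparison (363 ± 69.5 CPM in HFD AAV-BCKDK and 333 ± 18.0 CPM in HFD AAV-CON, against 388 ± 43.3 CPM in ND AAV-CON). With HFD AAV-CON replicate 3 left out the diet calls of Pygm, Pygb and Gbe1 remained (adjusted p = 0.0463, 0.0440 and 0.00605). Without that library Gbe1 and Phka1 kept the vector call (adjusted p = 0.0141 and 0.0379), and Gys1, Pygm and Pygb did not (adjusted p = 0.0917, 0.0804 and 0.0668).

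**Figure D2:**
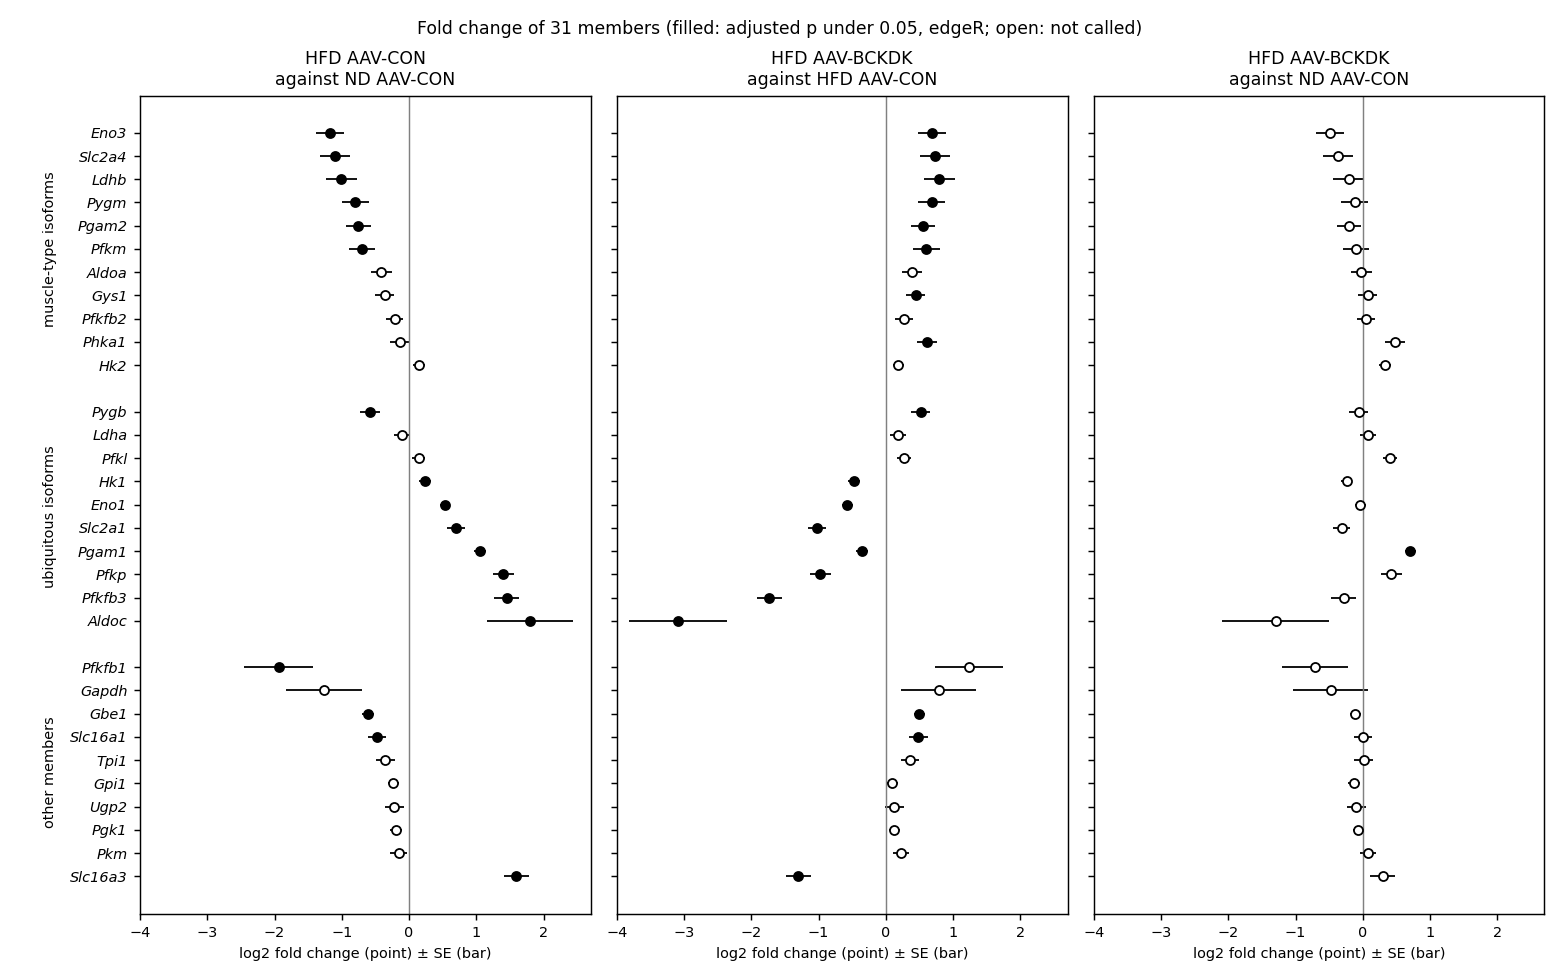
Log2 fold change (horizontal axes) with its standard error for the 31 members in the 3 comparisons, filled where called by edgeR and open where not. With diet the called muscle-type members lie between -1.17 and -0.70, all called ubiquitous members but Pygb lie above 0, and in HFD AAV-BCKDK against ND AAV-CON the only filled point is Pgam1 at 0.71.

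Rises in the vector comparison were counted again with each library left out in turn. Of the 11 members that rose, 2 stayed called without HFD AAV-BCKDK replicate 2 or 3 (Gbe1 and Phka1), and 3 without replicate 1 (those and Slc16a1). Without HFD AAV-CON replicate 3 these were again Gbe1 and Phka1. Without HFD AAV-CON replicate 1 there were 7, after Gys1, Pgam2, Slc16a1 and Pfkm were lost. Pfkm was also lost without any 1 ND AAV-CON library (adjusted p = 0.0569 to 0.0605), and Pgam2 without ND AAV-CON replicate 1 or 3 (adjusted p = 0.0511 and 0.0542). The lost rises had adjusted p of at most 0.125, and their log2 fold changes without a library stayed between 0.33 and 0.83. As many as 18 members rose with the vector and 16 fell with diet without HFD AAV-CON replicate 2, which lay nearest the other groups. Fitting the 2 groups of the comparison alone left 2 rises and 8 falls. Of the 8 falls, 7 held in each of the 16 alternative settings, and the exception was Pgam1. With diet 12 of the 18 calls held in all 16 (Slc2a4, Slc2a1, Pfkp, Pfkfb1, Pfkfb3, Pgam1, Pgam2, Eno1, Eno3, Ldhb, Pygm and Slc16a3). All 37 calls of the diet and vector comparisons kept their direction in all 16.

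Scaling mattered to the level of these changes. TMM factors set the middle of all genes near 0, whereas scaling by total counts moved the median of all genes to 0.40 with diet and to -0.47 with the vector. Under total counts 12 members rose and 7 fell with diet, and 1 rose (Ldhb) and 12 fell with the vector. The lower share of mitochondrial reads in HFD AAV-CON enters the total, and its part in this shift was not tested. Calls over all genes were then 86.5% higher with diet, against 52.4% under TMM, and 5.48% higher with the vector, against 45.2%. Relative to the shifted median, the muscle-type median was -0.75 with diet and 0.65 with the vector, close to -0.70 and 0.61 relative to the median under TMM. The ubiquitous median was 0.63 and -0.53 relative to the shifted median, against 0.62 and -0.52 under TMM. A change of scaling moves all genes of a library by the same factor. This closeness therefore follows from the arithmetic and is not a check of the difference between the classes. No called member changed its sign, but Hk2, Aldoa, Pfkfb2, Pfkl, Ldha, Gpi1, Pgk1, Pkm, Tpi1 and Ugp2, none of them called under TMM, did so in the vector comparison.

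**Figure D3:**
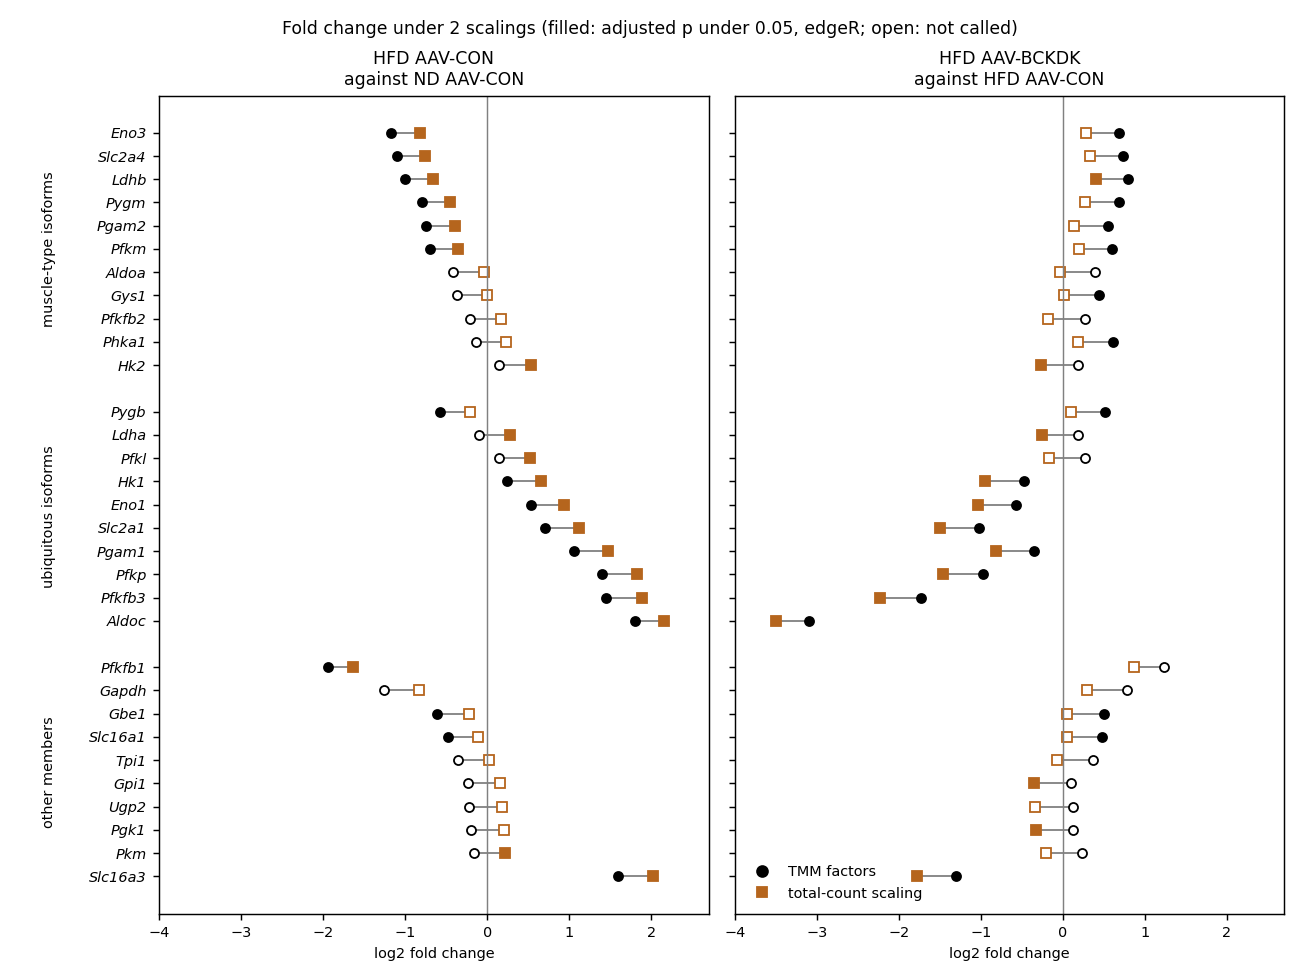
Log2 fold change (horizontal axes) of the 31 members under TMM factors (circles) and under total-count scaling (squares), filled where called, for the diet comparison at left and the vector comparison at right. Total counts shift the members to the right with diet and to the left with the vector, so that 12 members rise and 7 fall with diet and 1 rises and 12 fall with the vector.

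Ratios of isoforms within a library do not depend on scaling. Across 11 pairs, with the muscle-type form (for the lactate transporters, Slc16a1) in the numerator, the log2 ratio of counts was lower in HFD AAV-CON than in ND AAV-CON without overlap in 10 pairs. Only Hk2 to Hk1 overlapped. In HFD AAV-BCKDK the ratio was higher than in HFD AAV-CON without overlap in 9 pairs, and Pfkm to Pfkl and Pygm to Pygb overlapped. Among single genes, 55.3% of all genes tested had no overlap with diet and 51.2% with the vector. The diet differences ran from -2.20 (Aldoa to Aldoc) to -0.09 (Hk2 to Hk1) with a median of -1.76, and the vector differences from 0.19 (Pygm to Pygb) to 3.85 (Aldoa to Aldoc) with a median of 1.31. The Aldoa to Aldoc ratio rests on 0 to 36 Aldoc reads in a library, so its size depends on the pseudocount. Its vector difference lay between 2.88 and 4.55 with 1 library left out. Aldoc passed the filter only through HFD AAV-CON, the group where it was high, so this pair adds no support to the counts of pairs. Pfkm is in the pair with Pfkl and in the pair with Pfkp, so these pairs are not independent. Exact two-sided permutation tests of 3 against 3 libraries cannot go below p = 0.1, and the smallest Benjamini-Hochberg adjusted value over the 33 ratio tests was 0.132, so no ratio passed a threshold of 0.05. With HFD AAV-CON replicate 3 left out all 11 differences kept their sign in both comparisons, from -2.35 to -0.04 with diet and from 0.16 to 3.995 with the vector.

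Individual pairs differed in size. Pgam2 to Pgam1 had log2 ratios of 1.997, 1.86 and 1.91 in HFD AAV-BCKDK and 0.57, 1.53 and 0.89 in HFD AAV-CON, against 2.72, 2.95 and 2.82 in ND AAV-CON. Eno3 to Eno1 had 2.66, 2.53 and 2.68 in HFD AAV-BCKDK and 0.77, 1.87 and 1.30 in HFD AAV-CON, against 3.07, 3.25 and 2.90 in ND AAV-CON. These pairs put the groups in the same order, HFD AAV-CON lowest and ND AAV-CON highest, with no overlap. Ldhb to Ldha had 1.002, 0.81 and 0.94 in HFD AAV-BCKDK and -0.12, 0.60 and 0.24 in HFD AAV-CON, against 1.25, 1.23 and 1.14 in ND AAV-CON, again in that order. Pfkfb2 to Pfkfb3 had 2.04, 1.43 and 1.41 in HFD AAV-BCKDK and -0.75, 0.21 and -0.47 in HFD AAV-CON, against 1.30, 1.63 and 1.002 in ND AAV-CON. It was below 0 in HFD AAV-CON replicates 1 and 3, which means fewer reads from the cardiac than from the inducible form. Per kilobase of exon, Pfkfb2 made up 76.1% ± 4.31 of its pair in HFD AAV-BCKDK and 45.3% ± 8.50 in HFD AAV-CON, against 72.0% ± 4.35 in ND AAV-CON (SD, n = 3 each). Pgam2 made up 89.9% ± 0.427 of its pair in HFD AAV-BCKDK and 82.1% ± 4.70 in HFD AAV-CON, against 94.4% ± 0.418 in ND AAV-CON, so the muscle form remained the larger part in all 3. Pygm to Pygb changed least among the pairs that did not overlap with diet, at 69.2% ± 1.64 Pygm in HFD AAV-BCKDK and 66.3% ± 2.38 in HFD AAV-CON, against 70.0% ± 1.17 in ND AAV-CON.

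**Figure D4:**
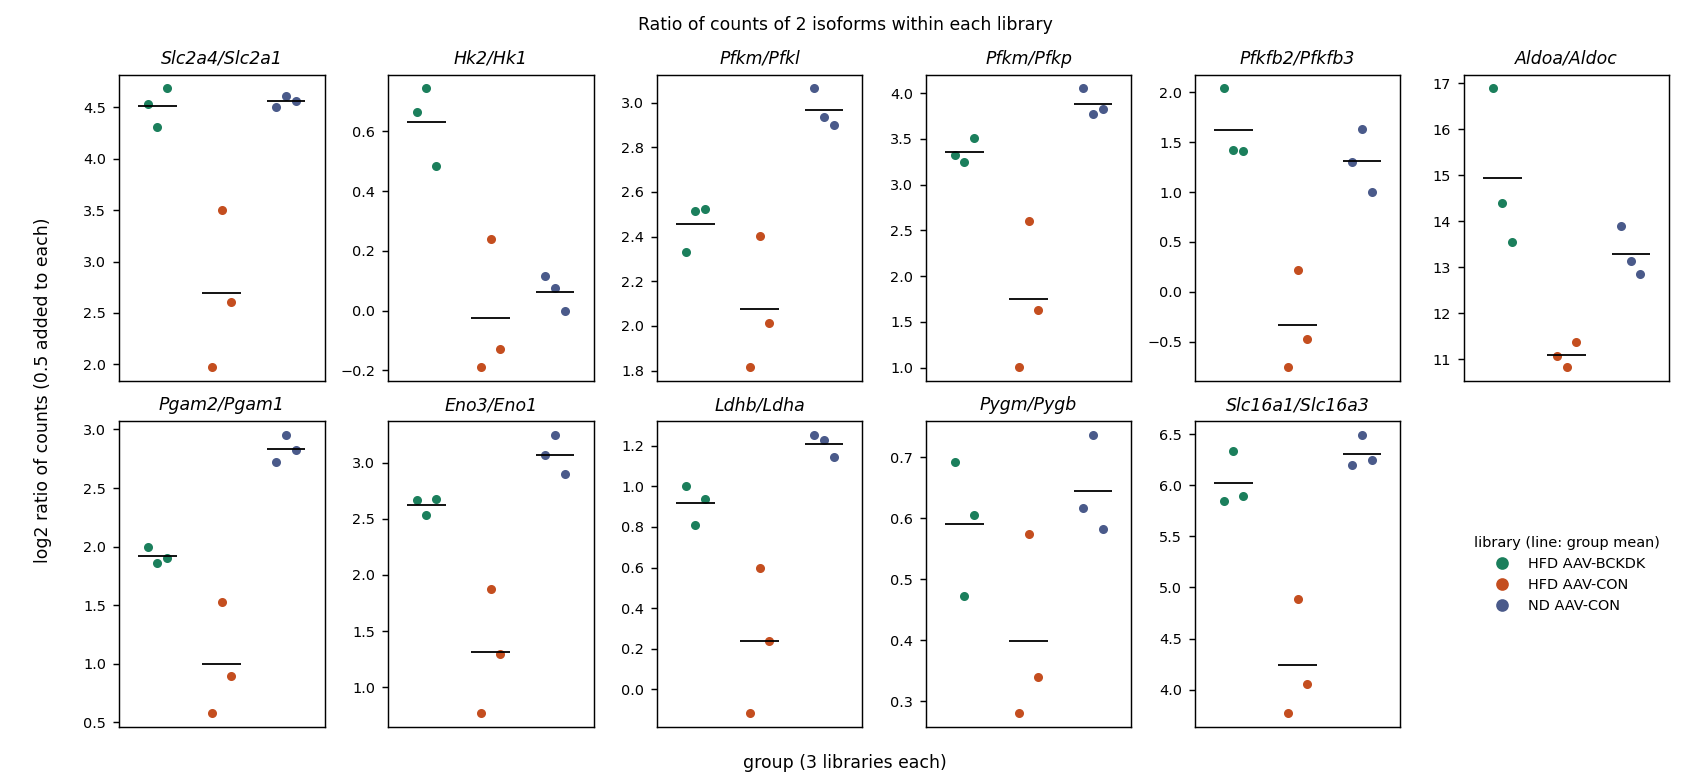
Log2 ratio of the counts of 2 isoforms (vertical axes, 1 scale per pair, not from 0) in the 9 libraries, with HFD AAV-BCKDK left, HFD AAV-CON in the middle and ND AAV-CON right and a line at each group mean. HFD AAV-CON lies below ND AAV-CON without overlap in every pair but Hk2/Hk1, and HFD AAV-BCKDK lies below ND AAV-CON without overlap in 5 pairs, Pgam2/Pgam1 by the most (-0.91).

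Against ND AAV-CON, HFD AAV-BCKDK differed in both diet and vector, and 1 member was called. Pgam1 was higher by 0.71 (SE 0.09, adjusted p = 0.00604), as 1 of 31 members (3.23%), where 2.45% of all genes were called (1.18% higher and 1.27% lower). The call held without each library, 0.73 with an adjusted p of 0.0183 without HFD AAV-CON replicate 3, and was lost under total-count scaling. The other 30 members did not pass the test, which does not show that they were alike in the groups. The nearest to the threshold were Pfkl at 0.41 (SE 0.10, adjusted p = 0.0789) and Hk2 at 0.33 (SE 0.09, adjusted p = 0.0912), both higher in HFD AAV-BCKDK without overlap. Over all members 6 were higher and 8 lower without overlap, where 12.6% and 15.1% of all genes were. Among the isoform ratios, Hk2 to Hk1 was higher in HFD AAV-BCKDK without overlap (0.57). Pgam2 to Pgam1 (-0.91), Pfkm to Pfkp (-0.52), Pfkm to Pfkl (-0.51), Eno3 to Eno1 (-0.45) and Ldhb to Ldha (-0.29) were lower without overlap, and the other 5 overlapped. A fit of these 2 groups alone called 5 members higher and 2 lower, where 464 of 13665 genes were called higher and 409 lower. DESeq2 called 3 members higher and 0 lower, where 486 of 14160 genes were called higher and 416 lower.

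Levels between genes can be compared per kilobase of exon. In HFD AAV-BCKDK the highest members were Aldoa (669 CPM per kb), Ldhb (658), Eno3 (369) and Pgam2 (354), all muscle-type. In HFD AAV-CON they were Aldoa (510.4 CPM per kb), Ldhb (379.5), Pgam2 (242) and Eno3 (229), and in ND AAV-CON Ldhb (761 CPM per kb), Aldoa (679), Eno3 (516) and Pgam2 (408). The lowest in ND AAV-CON were Aldoc (0.0590 CPM per kb), Slc16a3 (0.468), Pfkfb3 (1.48) and Pfkp (2.78). The isoforms that rose with diet stayed below their muscle counterparts in level per kilobase, except for Pfkfb3 (4.06 CPM per kb in HFD AAV-CON) against Pfkfb2 (3.29). Summed over all 11 genes and not divided by length, muscle-type isoforms held 5616 ± 269 CPM in HFD AAV-BCKDK and 3804 ± 1053 CPM in HFD AAV-CON, against 6228 ± 266 CPM in ND AAV-CON (SD, n = 3 each). Also not divided by length, the sum of the 10 ubiquitous isoforms was 1446 ± 62.1 CPM in HFD AAV-BCKDK and 1405 ± 96.2 CPM in HFD AAV-CON, against 1393 ± 31.1 CPM in ND AAV-CON (SD, n = 3 each). The libraries of the 3 groups overlapped in this sum.

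Other genes of glucose handling were read from lists by function, and the counts below are for the diet and then the vector comparison, beside 43.3% of all genes called with diet and 38.2% with the vector. Of 10 other hexose transporters and kinases tested, 2 rose and 2 fell with diet (40% called, near the share of all genes), and 2 rose and 3 fell with the vector (50% called). Hk3, the hexokinase of white blood cells, rose by 2.79 with diet (SE 0.38) and fell by 3.48 with the vector (SE 0.40). Slc2a3, which encodes GLUT3, rose by 0.95 and fell by 1.08 (SE 0.22 each). Slc2a12, which encodes GLUT12, fell by 2.07 with diet (SE 0.35) and rose by 1.08 with the vector (SE 0.35), and Slc2a8, which encodes GLUT8, fell by 0.98 and rose by 0.35 (SE 0.10 each). Slc2a10, which encodes GLUT10, fell by 0.90 with the vector (SE 0.28).

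Of 12 other glycolysis and gluconeogenesis genes, 0 rose and 3 fell with diet (25% called, below the 43.3% of all genes), and 6 rose and 2 fell with the vector (66.7% called, against 38.2%). Pcx, the pyruvate carboxylase that refills the citric acid cycle, fell by 0.95 with diet (SE 0.12), and Ldhd, the mitochondrial D-lactate dehydrogenase, fell by 0.85 (SE 0.20). With the vector Ldhd rose by 0.89 (SE 0.20), Pcx by 0.37 (SE 0.12) and Tigar, a fructose 2,6-bisphosphatase, by 0.43 (SE 0.10), and Pfkfb4 fell by 1.34 (SE 0.35). Bpgm, which makes 2,3-bisphosphoglycerate in red blood cells, fell by 0.56 with diet and rose by 0.43 with the vector (SE 0.13 each).

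Of 22 other glycogen genes, 3 rose and 10 fell with diet (59.1% called, against 43.3% of all genes), and 8 rose and 2 fell with the vector (45.5% called, against 38.2%). Epm2a, the glycogen phosphatase laforin, fell by 0.92 and rose by 0.84 (SE 0.17 each), and Phkg1, the muscle catalytic subunit of phosphorylase kinase, fell by 1.65 with diet (SE 0.34). Ppp1r3a, the striated-muscle subunit that brings phosphatase 1 to glycogen, fell by 0.59 and rose by 0.92 (SE 0.15 each), and Ppp1r3d, of the same family, fell by 0.51 and rose by 1.13 (SE 0.19 each). Ppp1r3c, also of that family, rose by 0.98 with diet (SE 0.20) and stood at -0.07 with the vector, and Ppp1r3b stood at 0.03 with diet and rose by 0.61 with the vector (SE 0.12). Stbd1, which tethers glycogen to membranes, rose by 0.81 with diet and fell by 0.58 with the vector (SE 0.12 each). Of 14 pentose phosphate and hexosamine genes, 6 rose and 1 fell with diet (50% called, against 43.3% of all genes), and 0 rose and 5 fell with the vector (35.7% called, near the 38.2% of all genes). G6pdx, the entry enzyme of the pentose phosphate pathway, rose by 1.03 (SE 0.17) and fell by 1.11 (SE 0.18), Pgd rose by 0.73 and fell by 0.58 (SE 0.10 each), and Tkt rose by 0.65 (SE 0.12) and fell by 0.71 (SE 0.13). Gfpt2, which starts hexosamine synthesis, rose by 1.20 and fell by 0.75 (SE 0.10 each), and Uap1 of the same route rose by 0.56 and fell by 0.34 (SE 0.08 each).

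Of 17 regulators of glucose uptake, 2 rose and 7 fell with diet (52.9% called, against 43.3% of all genes), and 7 rose and 3 fell with the vector (58.8% called, against 38.2%). Tbc1d4, the Rab GTPase-activating protein that holds GLUT4 inside the cell, fell by 0.97 and rose by 0.46 (SE 0.13 each). Txnip, an inhibitor of glucose uptake, fell by 0.73 and rose by 0.45 (SE 0.13 each), while its relative Arrdc4 rose by 0.91 and fell by 0.58 (SE 0.16 each). Sort1, a sorting receptor of GLUT4 vesicles, fell by 0.86 with diet (SE 0.15), and Vamp2, a SNARE of these vesicles, fell by 0.38 and rose by 0.38 (SE 0.10 each). Hif1a, whose protein drives many glycolytic genes under low oxygen, rose by 0.69 and fell by 0.76 (SE 0.20 each). In HFD AAV-BCKDK against ND AAV-CON, 4 named genes of these lists were called by edgeR. These were Slc2a8 (-0.63, adjusted p = 0.0153), Pcx (-0.58, adjusted p = 0.0429), Ppp1r3b (0.64, adjusted p = 0.0324) and Ppp1r3c (0.91, adjusted p = 0.0485).

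All calls of these list genes in the diet and vector comparisons had an adjusted p under 0.05 by edgeR. Of the named calls, 19 of 24 with diet and 12 of 25 with the vector held in every alternative setting. Under total-count scaling Vamp2 changed sign in both comparisons, and Pcx, Slc2a8, Tigar and Bpgm did so with the vector. Of the 24 named here with diet, 3 were lost without at least 1 library, with adjusted p of at most 0.145. Hif1a was lost without HFD AAV-CON replicate 1 or 3 or any ND AAV-CON library, Vamp2 without replicate 1 or 3 of either group, and Ppp1r3d without any ND AAV-CON library, HFD AAV-CON replicate 1 or 3 or HFD AAV-BCKDK replicate 2. Of 25 with the vector, 11 were lost, with adjusted p of at most 0.128. All 11 were lost without HFD AAV-CON replicate 3 (Arrdc4, Bpgm, Hif1a, Pcx, Pfkfb4, Slc2a10, Slc2a12, Slc2a8, Tbc1d4, Txnip and Vamp2), and all but Txnip without replicate 1 of that group. Of the 11, all but Slc2a8 and Txnip were lost without HFD AAV-BCKDK replicate 1. Leaving out replicate 2 of HFD AAV-BCKDK ended the calls of Arrdc4, Pcx, Slc2a10, Slc2a12, Slc2a8, Txnip and Vamp2, and leaving out its replicate 3 those of Bpgm, Pcx, Slc2a12, Slc2a8, Tbc1d4 and Txnip. Slc2a12 was also lost without any ND AAV-CON library and Pcx without ND AAV-CON replicate 1 or 3. All 4 calls in HFD AAV-BCKDK against ND AAV-CON were lost without at least 1 library, with adjusted p of at most 0.169. Slc2a8 was lost without ND AAV-CON replicate 1 or 2 or any HFD AAV-BCKDK library, and Pcx without any library of those groups or HFD AAV-CON replicate 3. Ppp1r3b and Ppp1r3c were lost without any ND AAV-CON library, HFD AAV-CON replicate 3 or HFD AAV-BCKDK replicate 1 or 2.

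Markers of several cell types moved with the same groups, and those of others did so in part or not at all. Of all genes tested, 22.7% rose and 20.6% fell with diet. With the vector 17.3% rose and 20.9% fell. All 8 cardiomyocyte markers (Myh6, Tnnt2, Actc1, Tnni3, Myl2, Ryr2, Pln and Actn2) were detected, with summed levels of 29357 to 31717 CPM in HFD AAV-BCKDK and 16261 to 26888 CPM in HFD AAV-CON, against 33266 to 34409 CPM in ND AAV-CON. With diet 7 of the 8 fell and 0 rose, with a median of -0.72, beside -0.70 for the muscle-type isoforms, and with the vector 5 rose and 0 fell, with a median of 0.62, beside 0.60. All 8 macrophage markers rose with diet and fell with the vector, with sums of 473 to 623 CPM in HFD AAV-BCKDK and 1749 to 2951 CPM in HFD AAV-CON, against 623 to 879 CPM in ND AAV-CON. Of 8 fibroblast markers 6 rose with diet and 7 fell with the vector, with sums of 1159 to 1284 CPM in HFD AAV-BCKDK and 1897 to 4518 CPM in HFD AAV-CON, against 1326 to 1408 CPM in ND AAV-CON. All 6 T and NK cell markers rose with diet and fell with the vector, with sums of 1.71 to 10.9 CPM in HFD AAV-BCKDK and 86.9 to 156 CPM in HFD AAV-CON, against 1.75 to 33.7 CPM in ND AAV-CON. So did all 4 proliferation markers, with sums of 19.8 to 21.9 CPM in HFD AAV-BCKDK and 49.0 to 68.7 CPM in HFD AAV-CON, against 16.6 to 19.7 CPM in ND AAV-CON. Endothelial markers gave 6 falls of 8 with diet and 7 rises with the vector, and 5 of 5 erythroid markers tested fell with diet and rose with the vector. Smooth muscle and pericyte markers gave 3 falls of 6 with diet and 2 rises with the vector. Of 4 B cell markers, 0 were called with diet and 2 fell with the vector. Their sums were 0.389 to 1.31 CPM in HFD AAV-BCKDK and 4.87 to 11.4 CPM in HFD AAV-CON, against 1.03 to 6.54 CPM in ND AAV-CON. Markers of B cells and of T and NK cells may have passed the filter through HFD AAV-CON, where their highest sums were. Calls of markers that did so add no support. Of 4 neutrophil markers, 1 rose with diet and 1 fell with the vector, where their median was 0.14. The part of these cell types in the isoform results was not tested.

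Skeletal muscle, which uses Pygm, Pgam2 and Eno3 as well, left few reads. Its 9 markers summed to 6.28 to 13.5 CPM in HFD AAV-BCKDK and 8.92 to 9.29 CPM in HFD AAV-CON, against 6.32 to 8.75 CPM in ND AAV-CON, and Myh1 was at 0 in all libraries. Of the 4 of these markers tested, 0 were called with diet and 1 fell with the vector, where 43.3% and 38.2% of all genes were called. Atrial markers summed to 63.2 to 176 CPM in HFD AAV-BCKDK and 285 to 1439 CPM in HFD AAV-CON, against 86.5 to 212 CPM in ND AAV-CON. Of 3 tested, 1 was called higher with diet and 1 lower with the vector, and the part of atrial tissue in the results was not tested. Adipocyte markers summed to at most 4.32 CPM in any library, and Lep was at 0 in all. Only 1 adipocyte marker was tested, and it was called higher with the vector and not called with diet. This marker may have passed the filter only through HFD AAV-BCKDK, the group with the highest adipocyte sum. If so, its call adds no support. Reads of some members can be shared with other genes. The annotation places near-identical copies of 9 members elsewhere in the genome and a gene on the opposite strand over 14 members, and the sources used here do not say whether counting used strand. The copy of Eno1 in the table, Eno1b, held 98 to 223 reads per library.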

How the data were processed

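RNA from the left ventricle of 9 mice (3 per group) was extracted with Trizol and made into mRNA libraries, per the labels' protocols. Reads were aligned to mm10 with HISAT2 2.0.5, per the submitters' processing notes, and the authors deposited raw read counts per gene, without normalization. The counting tool is not stated in these sources. Entries without a gene name (4142 of 26178, 1.02% to 6.01% of counts) stayed out of library sizes and tests.

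All 9 libraries entered 1 fit in edgeR 4.0.16 (R 4.3.3, limma 3.58.1) with TMM factors and filterByExpr by group, which left 14160 genes. The quasi-likelihood test was adjusted over all of them, with a threshold of 0.05. The common biological coefficient of variation was 18.6%. The fit was also run on simulated data with the same spread in all genes and groups. That run cannot show how the fit handles the wider spread between HFD AAV-CON libraries. CPM uses the same factors, and length is the union of exons in GENCODE M21. Isoform ratios are log2 ratios of counts with a pseudocount of 0.5, compared by exact two-sided permutation. A near-identical copy aligns at 95% identity or more over at least 200 bases. Alternatives were RLE and total-count scaling, DESeq2 1.42.0, no filter on low counts, no mitochondrial genes, the 2 groups compared alone, a replicate block and leaving out each library, and for ratios a pseudocount of 5. The members and the other lists were chosen with earlier results of these data known. Some genes of the other lists are not reported here and are left out of the lists' counts. Values per library are given for paired isoforms and for members called with a log2 change of at least 1, and of each other list up to 4 genes are named by smallest p in the diet comparison and in the vector comparison. No library was counted as a duplicate of another (chi-square per degree of freedom 14.9 to 261 between replicates). Values after ± are SDs between the libraries of a group. The SE of a fold change is its absolute log2 value divided by the square root of the F statistic of the edgeR test. The edgeR fit estimates the spread of a gene over all 3 groups together.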

Additional observations from a re-analysis of the deposited data

How the results depend on the processing

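The 16 alternatives left every called member's direction in the diet and vector comparisons as reported. Over named genes and Bckdk, 2186 of 2495 alternative values kept direction and side of the threshold, 212 lost a call, 53 gained one and 44 changed sign. Over counts and isoform ratios, 373 of 408 stayed within the limits, 33 moved and 2 changed sign. All 33 that moved were counts of calls, and the 2 that changed sign were ratios. With so few libraries the permutation test of a ratio could not pass the threshold, so no ratio could gain or lose a call. The pooled 373 therefore does not show how stable the counts of calls were. Causes were not tested. Having 3 libraries a group limits every test, and Aldoc had at most 36 reads in a library.

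Under total-count scaling the fold changes below changed sign. Called in the reported fit were Vamp2 with diet, and Vamp2, Pcx, Slc2a8, Tigar and Bpgm with the vector. With diet the reversed values were 0.18 for Ugp2, 0.0034 for Vamp2, 0.021 for Tpi1, 0.17 for Pfkfb2, 0.22 for Pkm, 0.23 for Phka1, 0.16 for Gpi1, 0.18 for Tigar, 0.20 for Pgk1 and 0.28 for Ldha. With the vector they were -0.27 for Hk2, -0.34 for Ugp2, -0.17 for Pfkl, -0.060 for Vamp2, -0.068 for Tpi1, -0.071 for Pcx, -0.18 for Pfkfb2, -0.10 for Slc2a8, -0.038 for Aldoa, -0.20 for Pkm, -0.35 for Gpi1, -0.014 for Tigar, -0.0017 for Bpgm, -0.33 for Pgk1, -0.26 for Ldha and -0.26 for Sort1. In HFD AAV-BCKDK against ND AAV-CON they were -0.047 for Tpi1, -0.0060 for Pfkfb2 and -0.053 for Slc16a1. That scaling left 1 member called higher with the vector, and in HFD AAV-BCKDK against ND AAV-CON 136 genes called in either direction and 0 members. There, against 347 genes called in either direction in the reported fit (167 higher), DESeq2 called 902 (486 higher), with 3 members higher. The 2 groups alone gave 873 genes in either direction (464 higher), with 5 members higher and 2 lower, and 2 members higher with the vector.

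Replicate numbers did not pair the libraries (correlations of deviations from -0.22 to 0.19). A fit with the replicate block called 107 genes in HFD AAV-BCKDK against ND AAV-CON, where Slc16a1 stood at -0.00084, and 5614 with diet and 4922 with the vector.

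Leaving out 1 library, genes called ranged from 4050 (without HFD AAV-CON replicate 3) to 7325 (without its replicate 2) with diet, from 2847 to 6978 with the vector (the same libraries), and from 43 (without ND AAV-CON replicate 1) to 744 (without HFD AAV-CON replicate 2) between HFD AAV-BCKDK and ND AAV-CON. Members called lower with diet ranged from 8 to 16, and higher with the vector from 2 to 18. Between HFD AAV-BCKDK and ND AAV-CON, 1 to 5 members were higher and 0 to 1 lower. Signs varied in that comparison for Tpi1 (-0.046 to 0.059), Aldoa (-0.070 to 0.015), Slc16a1 (-0.048 to 0.059), Gapdh (-0.95 to 0.084), Eno1 (-0.068 to 0.022), Pfkfb2 (-0.10 to 0.14) and the ratios Slc2a4 to Slc2a1 (-0.14 to 0.047) and Pygm to Pygb (-0.11 to 0.0039). With diet they varied for Phka1 (-0.30 to 0.033) and Ppp1r3b (-0.089 to 0.10), and with the vector for Ugp2 (-0.040 to 0.22) and Ppp1r3c (-0.32 to 0.13).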
